A study of Mus musculus with 8 samples.

Results

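Cathepsins are the proteases of the lysosome, and 10 of their genes were followed here in the epididymal fat of male mice, a white adipose depot that lies along the epididymis: Ctsa, Ctsb, Ctsc, Ctsd, Ctsf, Ctsh, Ctsk, Ctsl, Ctss and Ctsz. They were taken by gene symbol from the 34866 genes of the deposited table, and all 10 passed the low-count filter that left 12480 genes for testing. The control mice (4 libraries) were Aromatase flox/flox, with loxP sites around both copies of Cyp19a1, the gene of the enzyme that turns androgens into oestrogens. The knockout mice (4 libraries) were aP2-Cre;Aromatase flox/flox, so the floxed alleles were common to both groups and the Cre transgene marked only one. The aP2 promoter comes from Fabp4, which encodes a carrier of fatty acids. It is active in fat cells and is known to act in some macrophages too. Mice with the transgene but no floxed allele were not analysed here, and thus the transgene's effect and the deletion's cannot be told apart. Ages, treatments and any pooling of animals are not given in the sources used here, and where nothing says that libraries came from separate animals, p-values measure only the spread between these libraries. The study asked which adipose genes downstream of aromatase act on phosphorus balance.

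Cathepsins are made as inactive proenzymes, carried to the lysosome by mannose 6-phosphate receptors, and switched on there by acid and by cleavage. Most are cysteine proteases related to papain, cathepsin D is an aspartic protease, and cathepsin A is a serine carboxypeptidase. Some serve the bulk breakdown of protein in nearly every cell, while others do special work: cathepsin S trims the invariant chain from MHC class II molecules in antigen-presenting cells and stays active at neutral pH outside the cell, cathepsin C activates the serine proteases of leukocyte granules, and cathepsin K cuts collagen. In fat, macrophages are a rich source of several of them.

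The 10 genes were placed in 3 classes from general knowledge of where they are expressed. Ctss, Ctsc, Ctsh and Ctsz were classed as macrophage-rich, Ctsa, Ctsb, Ctsd, Ctsf and Ctsl as broadly expressed, and Ctsk as stromal, since it is also made by fibroblasts and fat cell precursors. These classes are approximate: Ctss is the most restricted of the 4, and Ctsz, Ctsh and Ctsc are found in other cells as well.

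Promoter sequences from RefSeq (build GRCm38.p6), running from 250 bases before to 50 bases after each annotated start, were at hand for 8 of the 10 genes, in 9 promoters. Ctsb and Ctsh had no entry. The 3 shown are those of Ctss and Ctsc, the macrophage-rich genes whose differences had opposite signs, and of Ctsd, a broad gene with a difference near 0. Each runs 5′ to 3′ on the gene's own strand, from 250 bases before the start through its first 10 bases. Capitals mark CACGTG, the core of the element bound by the lysosomal regulator TFEB, and GAGGAA or its complement TTCCTC, a core bound by ETS factors such as PU.1.
Ctss (chr3:95526536-95526795, plus strand): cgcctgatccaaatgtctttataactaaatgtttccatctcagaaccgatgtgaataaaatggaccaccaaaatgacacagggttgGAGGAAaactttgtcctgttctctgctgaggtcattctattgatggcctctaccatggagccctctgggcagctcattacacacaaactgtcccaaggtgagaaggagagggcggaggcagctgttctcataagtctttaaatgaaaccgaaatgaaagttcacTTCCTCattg
Ctsc (chr7:88277835-88278094, plus strand): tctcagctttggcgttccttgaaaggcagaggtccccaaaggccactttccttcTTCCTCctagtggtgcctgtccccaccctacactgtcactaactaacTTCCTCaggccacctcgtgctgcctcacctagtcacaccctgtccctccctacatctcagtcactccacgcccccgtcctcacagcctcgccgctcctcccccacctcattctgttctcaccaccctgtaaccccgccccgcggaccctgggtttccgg
Ctsd (chr7:142387818-142388077, minus strand): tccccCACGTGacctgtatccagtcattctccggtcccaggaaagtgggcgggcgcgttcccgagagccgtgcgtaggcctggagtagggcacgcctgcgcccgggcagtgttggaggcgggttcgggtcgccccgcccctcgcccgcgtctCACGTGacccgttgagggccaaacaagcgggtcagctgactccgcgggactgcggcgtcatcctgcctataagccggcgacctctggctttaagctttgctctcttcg

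Both strands were searched for each motif, and the share of all 32851 promoters of the same length that hold it is given beside each count. CACGTG, which is its own complement, was found in promoters of 4 cathepsin genes, Ctsa, Ctsd, Ctsf and Ctsl (4 of the 9 cathepsin promoters), and in 7.15% of all promoters. All 4 are in the broad class, and Ctsb, the remaining broad gene, could not be searched. Of the 2 Ctsa promoters, the window starting at base 164833523 holds it and the one starting at 164832622 does not. The Ctsd window holds it at positions -245 and -98 from the start. The full CLEAR element, a longer TFEB site that contains CACGTG, was found in 0 of the 9 cathepsin promoters, against 0.33% of all. That element is so rare that its absence from 9 promoters says little. GAGGAA was found in Ctss, Ctsc and Ctsk, against 28.28% of all promoters, and the longer GAGGAAGT, which contains it, in Ctss and Ctsc, against 3.2% of all. In Ctss the GAGGAAGT match lies on the opposite strand at position -2, across the start itself, and in Ctsc on the opposite strand at -151. The GC box GGGCGG was in 5 of the genes (Ctsc, Ctsd, Ctsf, Ctss and Ctsz) and in 35.66% of all promoters, and TATAAA was in Ctss alone, at -233 on the opposite strand, against 13.62% of all. G and C made up 44% of the Ctss promoter window, 60.3% of that of Ctsc and 67.3% of that of Ctsd, with a median of 52.7% over all promoters. These are matches of letters in a short window, and factor binding was not measured.

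Expression was read by BRB-seq, which counts fragments from the 3′ end of transcripts, at 1538427 to 3053565 estimated counts per library. CPM is a gene's count as a share of the scaled library total, brought to a common total, and a log2 fold change is knockout minus control. A gene with no count in a library could still have been present at up to 3 counts, or 0.982 to 1.95 CPM. The totals overlapped between the genotypes, and control replicate 4 was the smallest library. The floxed gene itself could not serve as a check of the labels: Cyp19a1 had 0 to 5.017 estimated counts per library, at 1.00 ± 0.837 CPM in controls against 0.761 ± 0.663 CPM in the knockout libraries (SD, n = 4, two-sided exact permutation p = 0.686, smallest possible 0.0286). Fat cell transcripts were abundant in every library, with the 12 adipocyte markers summing to 38202 to 60583 CPM. Of 9 epididymal duct markers, Crisp1, Lcn5, Lcn8 and Lcn9 were at 0 in all 8 libraries, while Adam7 had 22 counts (8.53 CPM) in knockout replicate 3 and 9 in control replicate 2 and at most 1 elsewhere, Rnase10 had 4 counts in control replicate 1 and 3 in knockout replicate 1, and the other 3 had at most 1 count in a library.

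Ctss was the cathepsin gene whose difference passed the test. It was 2.31-fold higher in the knockout libraries. The other 9 genes did not pass, which does not show that they were unchanged. In edgeR's quasi-likelihood test 1 of the 10 cathepsin genes passed an adjusted p of 0.05 upward and 0 downward, against 0.12% of all tested genes upward and 0.0481% downward. At an unadjusted p under 0.05 there were 3 higher (Ctss, Ctsa and Ctsk) and 1 lower (Ctsc), where the shares over all genes were 3.52% and 2.87%. DESeq2 also called Ctss alone among the 10. The median log2 fold change of the 10 genes was 0.25 and 8 of them were above 0, while over all tested genes the median was -0.001 and 49.7% were above 0.

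Among the macrophage-rich genes, Ctss (ENSMUSG00000038642.10, chromosome 3, 95526786 to 95556403 in GRCm38) encodes cathepsin S. Its level was 69.2, 67.4, 70.4 and 63.5 CPM in the control libraries (replicates 1 to 4), compared with 135, 143, 160 and 187 CPM in the knockout libraries (replicates 1 to 4). The control libraries lay close together, and every knockout library was above all of them. The mean went from 67.6 ± 3.03 to 156 ± 22.8 CPM (SD, n = 4), and the log2 fold change was 1.21 (standard error 0.124, 95% interval 0.94 to 1.47, edgeR adjusted p = 0.000666). By unadjusted p it stood second among the 12480 genes. In RNA from whole tissue, a change in the number of cells of a type and a change in RNA per cell cannot be told apart. These levels rested on 99 to 569 counts per library, and no transcript of another gene in the table shared a word of 31 bases with Ctss.

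Ctsc (ENSMUSG00000030560.17, chromosome 7, 88278085 to 88310888) encodes cathepsin C, also called dipeptidyl peptidase I. It was at 292, 233, 221 and 292 CPM in controls 1 to 4, compared with 212, 223, 168 and 241 CPM in knockout replicates 1 to 4. The groups overlapped, with knockout replicates 2 and 4 above the lowest control library. The log2 fold change was -0.30 (95% interval -0.59 to -0.002, edgeR adjusted p = 0.775), which did not pass. Of the 4 macrophage-rich genes it was the one with a negative difference, and it stayed between -0.37 and -0.20 in each fit that left out 1 library.

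Ctsh, an aminopeptidase gene (ENSMUSG00000032359.14, chromosome 9, 90054152 to 90076089), was at 45.4, 59.4, 53.4 and 59.0 CPM in the control libraries and 61.8, 75.4, 62.1 and 63.0 CPM in the knockout libraries. Its groups did not overlap, but the gap between them was narrow, and the log2 fold change of 0.28 did not pass (95% interval -0.009 to 0.56, edgeR adjusted p = 0.798). Ctsz, a carboxypeptidase gene (ENSMUSG00000016256.10, chromosome 2, 174427493 to 174439039), ranged from 71.2 to 113 CPM in controls against from 99.4 to 152 CPM in the knockout libraries. Its log2 fold change was 0.30 (95% interval -0.05 to 0.64, edgeR adjusted p = 0.831). The groups overlapped, with control replicate 4 lowest and knockout replicate 4 highest. Without knockout replicate 4 the log2 fold change was 0.16, and without control replicate 4 it was 0.18.

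**Figure D1:**
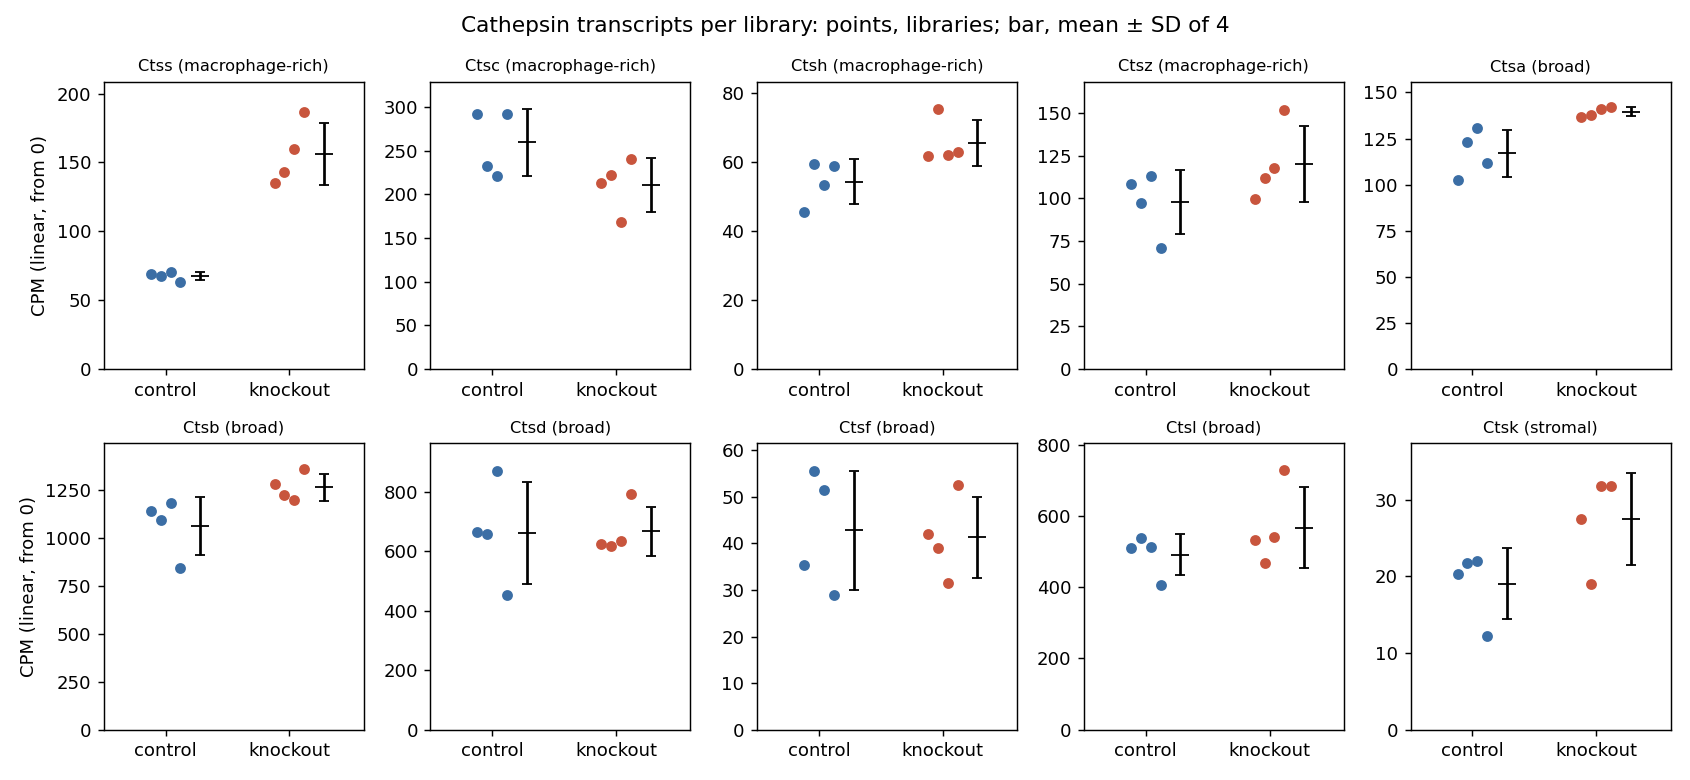
CPM of each of the 10 cathepsin genes (linear axes from 0, own scale per gene) in the 4 control and 4 knockout libraries, with replicates 1 to 4 from left to right and the mean ± SD beside them. The groups are far apart in Ctss (63.5 to 70.4 against 135 to 187 CPM), narrowly apart in Ctsh, Ctsa and Ctsb, and overlap in the other 6 genes.

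Of the broad genes, none passed the test (edgeR adjusted p 0.733 to 0.998). Ctsa (ENSMUSG00000017760.15, chromosome 2, 164832873 to 164841032) encodes cathepsin A, the protective protein that holds the lysosomal sialidase and beta-galactosidase in a complex. It was at 102, 123, 131 and 112 CPM in the control libraries and 137, 138, 141 and 142 CPM in the knockout libraries. The knockout libraries sat closely together just above the highest control library, and the log2 fold change was 0.25 (95% interval 0.02 to 0.49, edgeR adjusted p = 0.733). Ctsb (ENSMUSG00000021939.8, chromosome 14, 63122462 to 63145923), which encodes the cysteine protease cathepsin B, was at 1140, 1094, 1181 and 844 CPM in controls against 1281, 1224, 1201 and 1360 CPM in the knockout libraries. The groups did not overlap, though control replicate 3 and knockout replicate 3 lay close, and the log2 fold change was 0.25 (95% interval -0.02 to 0.52, edgeR adjusted p = 0.812). Without control replicate 4 it was 0.15. In all, 4 of the 10 genes had knockout libraries wholly above the control libraries (Ctss, Ctsh, Ctsa and Ctsb), against 2.48% of all tested genes, and 0 had them wholly below, against 1.74%.

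Ctsd (ENSMUSG00000007891.16, chromosome 7, 142375911 to 142388038), the gene of the aspartic protease cathepsin D, was at 664, 658, 872 and 455 CPM in controls against 624, 619, 635 and 791 CPM in the knockout libraries. The means were 662 ± 170 and 667 ± 83.0 CPM (SD, n = 4), and the 95% interval of the log2 fold change, -0.35 to 0.37, lies on both sides of 0. Its sign rests on single libraries: without control replicate 4 the log2 fold change was -0.13, and without knockout replicate 4 it was -0.08. Ctsf (ENSMUSG00000083282.2, chromosome 19, 4855130 to 4860918) ranged from 28.8 to 55.7 CPM in controls against 31.4 to 52.5 CPM in the knockout libraries, with a log2 fold change of -0.06 (95% interval -0.52 to 0.40). That sign, too, turned when control replicate 2, control replicate 3 or knockout replicate 3 was left out. Ctsl (ENSMUSG00000021477.9, chromosome 13, 64359337 to 64370890), the gene of cathepsin L, ranged from 406 to 537 CPM and from 467 to 729 CPM, with a log2 fold change of 0.21 (95% interval -0.10 to 0.52). Its highest value was in knockout replicate 4 and its lowest in control replicate 4. The log2 fold change was 0.06 without the former and 0.13 without the latter.

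Ctsk (ENSMUSG00000028111.4, chromosome 3, 95499256 to 95509362), the collagen-cutting cathepsin best known from osteoclasts, is the neighbour of Ctss on chromosome 3, and 17423 bases lie between them. It was at 20.3, 21.8, 22.0 and 12.2 CPM in controls against 27.5, 19.0, 31.8 and 31.8 CPM in the knockout libraries. Knockout replicate 2 fell within the control range and control replicate 4 stood below the rest. The log2 fold change was 0.51 (95% interval 0.03 to 1.00, edgeR adjusted p = 0.742). It was 0.37 without control replicate 4. Ctsk thus had the second largest difference of the 10 genes and did not pass. It had 19 to 97 counts per library, and its interval was the widest of the 10.

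**Figure D2:**
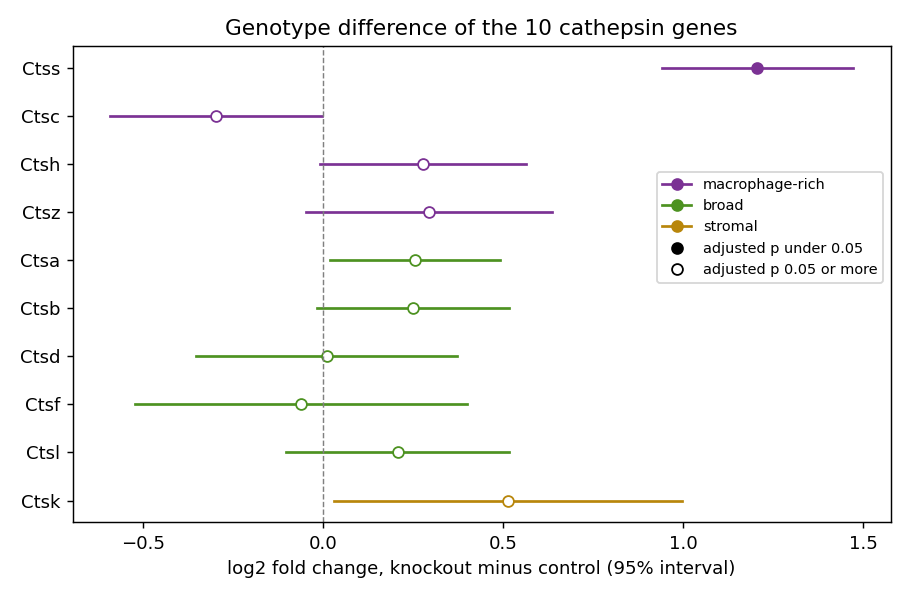
Log2 fold change (knockout minus control) of the 10 cathepsin genes with 95% intervals from edgeR, coloured by class, with a filled point where the adjusted p is under 0.05. Only Ctss is filled, at 1.21, and its interval starts at 0.94, above the upper limits of 8 of the other 9 genes.

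The macrophage-rich and broad classes, as drawn here, had medians close to each other, and the difference between the classes was not tested. The median log2 fold change was 0.29 for the 4 macrophage-rich genes, with 3 above 0, and 0.21 for the 5 broad genes, with 4 above 0. The difference of these medians, 0.08, was smaller than the spread of the same measure between libraries (pooled SD 0.197). The broad class leaves out Ctso, a further broadly expressed cathepsin gene that was tested (log2 fold change -0.22). That value lies below the broad median, so adding Ctso would lower the median and widen the difference between the classes. The medians with Ctso included were not computed. The lower 95% limit of Ctss (0.94) lay above the upper limit of each of the other genes except Ctsk (1.00). The difference between Ctss and the other genes was not tested.

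Summed over the 4 macrophage-rich genes, the level was 457 to 515 CPM in controls against 508 to 642 CPM in the knockout libraries. Over the 5 broad genes it was 1846 to 2748 and 2487 to 3075 CPM. The ratio of the sums was 0.206 ± 0.042 in controls against 0.206 ± 0.0123 in the knockout libraries (SD, n = 4), with overlapping groups. Ctss made up 2.37% ± 0.231 of all cathepsin CPM in controls against 4.78% ± 0.389 in the knockout libraries, and Ctsc 9.25% ± 2.47 and 6.47% ± 0.768 (SD, n = 4). For Ctss the groups did not overlap, at 2.18 to 2.71% against 4.28 to 5.17%, and for Ctsc they did. Since 3′ counts are not scaled by transcript length, these shares describe counts and do not rank the genes by their amount of transcript. All 10 genes together held 0.278% ± 0.0281 of the counts in controls against 0.331% ± 0.0299 in the knockout libraries (SD, n = 4).

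**Figure D3:**
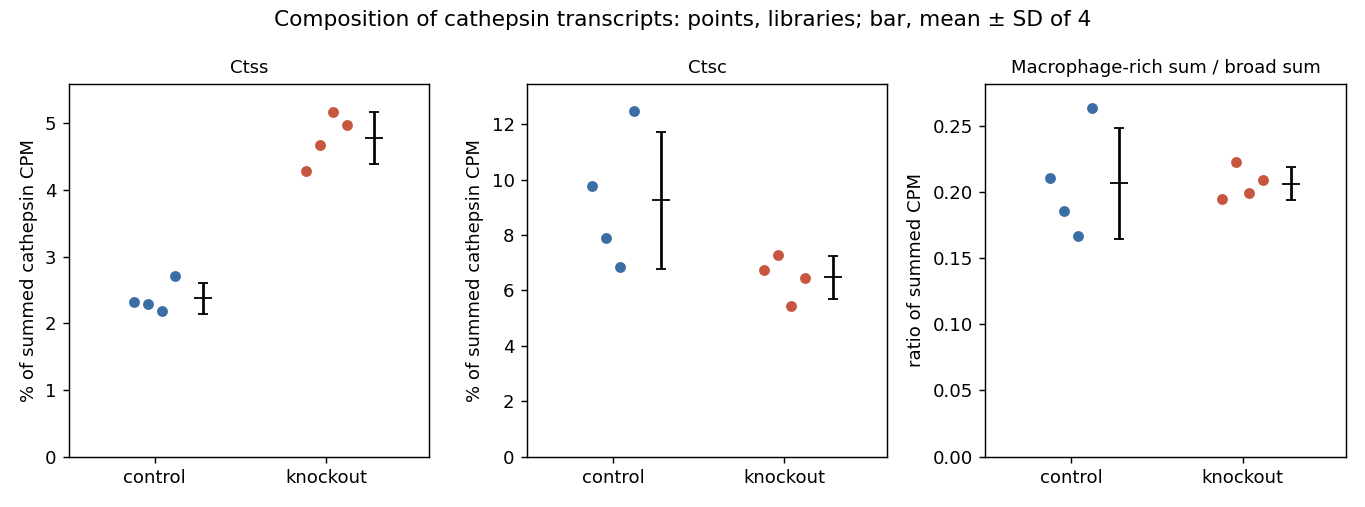
Ctss and Ctsc as a percentage of summed cathepsin CPM, and the ratio of the macrophage-rich to the broad sum, per library (axes from 0; replicates 1 to 4 from left to right, mean ± SD beside them). The share of Ctss is 2.18 to 2.71% in controls against 4.28 to 5.17% in the knockout libraries, while the ratio of the sums has the same mean, 0.206, in both.

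Most macrophage markers had a positive difference, as Ctss did. Of 20 markers 19 were tested, with a median log2 fold change of 0.37 and 17 above 0, against 49.7% of all tested genes. The 2 below 0 were Cd163 (-0.19) and Mertk (-0.06), while C1qa (0.15) and C1qc (0.11) were little above it. The untested marker, Fcgr1, was at 4.79 ± 2.87 CPM in controls against 2.92 ± 0.933 CPM in the knockout libraries (SD, n = 4). Of the 19 tested markers, 2 passed upward, against 0.12% of all tested genes, and 0 passed downward. The 2 were the endosomal membrane gene Cd68 (log2 fold change 1.13, edgeR adjusted p = 0.0156) and Lyz2, the lysozyme gene (0.85, edgeR adjusted p = 0.00776). The summed level of the 20 markers was 1237 to 1426 CPM in controls against 1739 to 2196 CPM in the knockout libraries, and none of the 20 was at 0 in any library. The part of these markers in the rise of Ctss was not tested.

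Relative to that marker sum, the cathepsin genes gave unlike ratios. Ctss per marker CPM was 0.0485, 0.0502, 0.0519 and 0.0513 in controls 1 to 4, compared with 0.0739, 0.0755, 0.0919 and 0.085 in knockouts 1 to 4. It was thus nearly constant over the control libraries and higher in each knockout library, by 0.69 on the log2 scale between the group means. The highest log2 fold change among the tested markers was that of Cd68, at 1.13, close to that of Ctss at 1.21. Genes of macrophages outside the list had larger ones, such as Mmp12 (2.0), Gpnmb (1.54) and Lilr4b (1.46), named here after their values were seen. Ctsc per marker CPM went the other way, from 0.163 to 0.236 in the control down to 0.0968 to 0.118 in the knockout libraries, with no overlap, a log2 ratio of -0.82. In CPM alone the groups of Ctsc overlapped, with a log2 fold change of -0.30. For Ctsh, Ctsz, Ctsa, Ctsb, Ctsd, Ctsf and Ctsl the log2 ratio of means lay between -0.57 and -0.21, and for Ctsk it was 0.03. The marker sum was itself higher in each knockout library, so a gene with steady CPM falls on this scale. Ctsd, with a log2 fold change of 0.01, had a log2 ratio of -0.50 with no overlap (0.3675 to 0.6424 in the control against 0.3274 to 0.3649 in the knockout libraries). Lyz2 alone supplied 379 of the mean 1340 CPM of the marker sum in controls against 682 of 1913 CPM in the knockout libraries. With Lyz2 left out of the sum, a choice made after seeing the data, the log2 ratios were 0.85 for Ctss and -0.66 for Ctsc, again with no overlap between the groups.

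**Figure D4:**
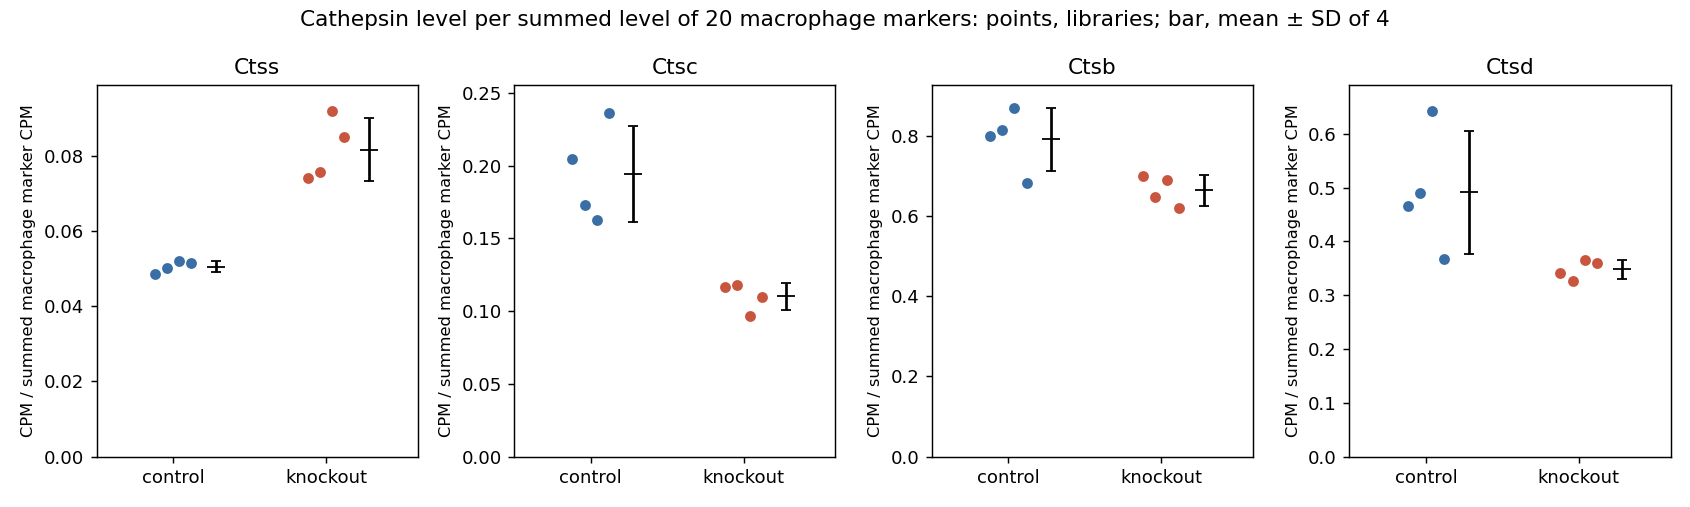
Level of Ctss, Ctsc, Ctsb and Ctsd per summed CPM of 20 macrophage markers, per library (axes from 0; replicates 1 to 4 from left to right, mean ± SD beside them). Ctss is higher in each knockout library (0.0739 to 0.0919 against 0.0485 to 0.0519). Ctsc (0.0968 to 0.118 against 0.163 to 0.236) and Ctsd (0.3274 to 0.3649 against 0.3675 to 0.6424) are lower in each, and Ctsb lies lower on average.

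None of the tested markers of other cell types that can bring cathepsins passed. The low-count filter left 4 of 7 dendritic, 2 of 7 neutrophil, 1 of 13 lymphocyte, 5 of 6 mast cell and 3 of 6 osteoclast markers for testing. Dendritic cell markers summed to 37.2 to 39.5 CPM in controls against 39.5 to 56.4 CPM in the knockout libraries, with 0 of 4 tested genes past the threshold. Among them Itgax, which macrophages of fat also carry, went from 4.17 ± 2.26 to 11.8 ± 3.68 CPM (SD, n = 4; edgeR adjusted p = 0.418). Neutrophil markers summed to 31.4 to 34.6 and 33.1 to 46.5 CPM, most of it from Cxcr2, and the defining gene Ly6g was at 0 in all 8 libraries. Lymphocyte markers summed to 19.7 to 29.2 and 15.1 to 43.2 CPM over 13 genes, and mast cell markers to 33.2 to 51.9 and 24.3 to 51.2 CPM over 6 genes. Of the osteoclast genes, Acp5 was at 369 ± 83.9 and 308 ± 67.7 CPM and Atp6v0d2, a proton pump subunit, at 5.15 ± 1.92 and 15.1 ± 4.04 CPM (SD, n = 4; edgeR adjusted p = 0.151), while Calcr had at most 1 count in a library. The adipocyte, fibroblast, endothelial and mesothelial lists had medians of -0.14, 0.06, 0.13 and -0.16, and none of their tested genes passed, with Retn nearest at -0.65 (edgeR adjusted p = 0.0731).

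Of 13 further cathepsin genes, all were in the table and 1 was tested, Ctso, a broadly expressed cysteine protease gene. Ctso was at 63.8 ± 14.7 CPM in controls against 55.1 ± 4.43 CPM in the knockout libraries (SD, n = 4; difference on the log2 scale -0.22, edgeR adjusted p = 0.910). Ctsg, the neutrophil granule protease gene, had at most 1 count in a library, Ctse at most 2 and the lymphocyte cathepsin gene Ctsw at most 4. Of the placental cathepsins Cts8 had up to 4.569 counts, and Cts3, Cts6, Cts7, Ctsj, Ctsm, Ctsq, Ctsr and Ctsll3 were at 0 in all 8 libraries.

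No gene on the list of protease inhibitors passed the test. Of 17 cystatin, stefin, serpin and latexin (Lxn) genes on the list, the table held 15, of which 7 were tested. By edgeR 0 were past the threshold in either direction and 1 was at an unadjusted p under 0.05. Cst3, the gene of the secreted inhibitor cystatin C, was at 1576 ± 328 and 1541 ± 158 CPM in control and knockout libraries (SD, n = 4; difference on the log2 scale -0.03, edgeR adjusted p = 0.987). Cstb, the gene of the cytosolic inhibitor stefin B, was at 71.7 ± 12.4 and 79.0 ± 18.2 CPM (SD, n = 4; edgeR adjusted p = 0.943), and Serpinb6a at 144 ± 17 and 179 ± 25.6 CPM (SD, n = 4; difference on the log2 scale 0.31, edgeR adjusted p = 0.713). Cst7, a cystatin of leukocytes, had at most 3 counts in a library. Lxn and Serpinb9 had log2 fold changes of 0.26 and 0.14.

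Of 7 other lysosomal peptidases all were tested and 0 passed, with a median log2 fold change of 0.04. Lgmn, the gene of the asparaginyl endopeptidase that cleaves some procathepsins, had the smallest p of them and was at 75.8 ± 10.3 and 95.3 ± 15.1 CPM (SD, n = 4; difference on the log2 scale 0.33, edgeR adjusted p = 0.731). Cpq, Tpp1 and Napsa had log2 fold changes of -0.38, 0.12 and -0.41.

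The 16 genes of lysosomal sorting and its control were all tested, with a median log2 fold change of -0.002 and 0 past the threshold. The mannose 6-phosphate receptor genes Igf2r and M6pr had log2 fold changes of 0.29 and 0.09 (edgeR adjusted p = 0.813 and 0.943). Psap, the precursor of the saposins that activate lysosomal lipid hydrolases, was at 863 ± 141 and 1165 ± 81.1 CPM with no overlap between the groups (SD, n = 4; difference on the log2 scale 0.43, edgeR adjusted p = 0.450). Mitf, a relative of TFEB, was at 14.9 ± 4.21 and 21.6 ± 1.07 CPM (SD, n = 4; difference on the log2 scale 0.52, edgeR adjusted p = 0.732), while Tfeb and Tfe3 had log2 fold changes of 0.05 and 0.04. Gga1, which sorts receptor cargo at the Golgi, had a log2 fold change of -0.23.

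Of 16 partners and substrates, 13 were tested, all 13 had a positive log2 fold change (median 0.23) and 0 passed. Cd74, the invariant chain that cathepsin S trims, was at 439 ± 55.0 and 511 ± 152 CPM (SD, n = 4; difference on the log2 scale 0.22, edgeR adjusted p = 0.923), and the MHC class II genes H2-Aa, H2-Ab1 and H2-Eb1 had log2 fold changes of 0.10, 0.08 and 0.09. The cathepsin A partners Neu1 and Glb1 were at 0.22 and 0.36. Of the granule proteases that cathepsin C activates, Prtn3 was at 12.1 ± 2.72 and 23.1 ± 11 CPM (SD, n = 4; difference on the log2 scale 0.91, edgeR adjusted p = 0.648), and Gzma, Gzmb and Elane had 8 counts or fewer in each library. The matrix genes Fn1, Col1a1 and Eln had log2 fold changes of 0.54, 0.34 and 0.38.

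Within the groups, most pairs of cathepsin genes varied in the same direction. Over the 45 pairs of genes, the correlation of log2 CPM deviations from the group means had a median of 0.39, and 31 pairs (68.9%) were above 0, where 49.9% of all pairs of tested genes were (8 libraries, which share their depth and composition within each column). It was highest for Ctsb with Ctsd (0.93) and Ctsz with Ctsd (0.90). Ctss varied most closely with Ctsz (0.83) and Ctsl (0.82), and hardly at all with Ctsc (0.02). The lowest values were those of Ctsc with Ctsa (-0.66), Ctsh with Ctsk (-0.60), Ctsc with Ctsk (-0.50) and Ctsh with Ctsb (-0.47). For Ctss, Ctsz, Ctsb, Ctsd, Ctsf and Ctsl, control replicate 4 was the lowest control and knockout replicate 4 the highest knockout library. How far these libraries set the correlations was not tested.

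Outside the family, the genes whose log2 CPM was most like that of Ctss over all 8 libraries were Raver1 (Pearson r 0.98), Lyz2 (0.97), Mmp12 (0.97), C3ar1 (0.96), Cybb (0.96), Gas7 (0.95), Samhd1 (0.95) and Lilr4b (0.95). These values include the difference between the groups. Mmp12 encodes the metalloelastase of macrophages, Cybb a subunit of the phagocyte NADPH oxidase and C3ar1 the receptor of complement fragment C3a. Lyz2 and Lilr4b have near copies, Lyz1 and Lilrb4a, so the division of reads within each pair is uncertain. Raver1 was listed at 0 in all 4 control libraries and averaged 6.97 ± 1.87 CPM in the knockout libraries (SD, n = 4). Whether the assignment of reads to gene models has a part in these values of Raver1 was not tested. Samhd1 was the one of the 8 that did not pass the test (log2 fold change 0.45, edgeR adjusted p = 0.272). With the group means taken out, 8 other genes were nearest, led by Ubr7 (0.99), Cdc16 (0.98) and Atp1b3 (0.98) and followed by Tfpi2, Fam234a, 1700123O20Rik, Sh3bp5l and Hoxd9 (0.96 to 0.97), and none of these 8 passed the test (edgeR adjusted p 0.939 to 0.998). Both lists hold the highest values among all tested genes outside the family, over only 8 libraries. High correlations therefore come partly from the ranking itself, and no chance level was computed.

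By the annotation, several cathepsin genes overlap others. Ctss overlaps the pseudogene Hmgb1-ps5 on the same strand, which had at most 4.86 counts in a library and averaged 0.48 CPM in each group. Ctsa overlaps Pltp and Neurl2 on the opposite strand, Ctsb overlaps Fdft1 and Ctsz overlaps Nelfcd. Whether the quantification used strand is not given in the sources used here, so reads in these overlaps are uncertain. Pltp, the gene of the phospholipid transfer protein, was at 258 ± 35.3 and 321 ± 81.0 CPM (SD, n = 4). The gene model Gm49369 shares 779 words of 31 bases with Ctsd, of the 2349 that Ctsd has, and was at 0 in all 8 libraries. The pseudogene Gm49230 shares 365 of the 6513 words of Ctsl and had at most 1.565 counts.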

How the data were processed

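Libraries of total RNA from 8 samples were made by BRB-seq per the labels' protocols. The authors' table holds estimated counts, one value per gene and library, not normalized; Salmon and GRCm38 are named in the submitters' processing notes, and the version, annotation and use of molecular identifiers are not given in the sources used here. Floors cover counting error only. Identifiers were matched without version to GENCODE M21 symbols (34652 of 34866). Counts were rounded and tested with edgeR 4.0.16 in R 4.3.3 (robust quasi-likelihood F test, TMM factors, filterByExpr, Benjamini-Hochberg over 12480 genes, threshold 0.05). Log2 CPM used a prior count of 2. The test was checked on simulated counts first, where it recovered 72 of 100 genes changed 2-fold and 97 of 100 changed 4-fold, with 4.52% of calls false. The simulation gave every gene the same dispersion and changed only genes above a set mean level. Its recovery therefore need not hold for the real counts. Replicate pairs differed by more than sampling noise (chi-square per degree of freedom 4.48 to 9.4). Alternatives were DESeq2 1.42.0, RLE factors, upper-quartile factors, no filter, a block by replicate number, thinning to the smallest library total, and leaving out each library. The genes named are the 10 cathepsins, the genes of each list past the threshold or else up to 4 with the smallest p, and the 8 genes most like Ctss; a few others were named after their values were seen. The genes, classes and lists were chosen with earlier results of these data known.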

Additional observations from a re-analysis of the deposited data

Results flagged for a closer look

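Of 28 groups of 4 library values examined for a library apart from the rest by Dixon's critical value, 2 held one, where chance gives about 1.4. Ctsh was at 75.44 CPM in knockout replicate 2, against 61.8 to 63.0 CPM in the other knockout libraries. Ctsd was at 791.3 CPM in knockout replicate 4, against 619 to 635 CPM in the other knockout libraries.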

How the results depend on the processing

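Ctss passed in all 14 alternative fits, with log2 fold changes of 1.11 to 1.27 and adjusted p-values from 2.45e-12 (DESeq2) to 0.014, and no other cathepsin gene passed in any of them. The number of genes past the threshold in the whole table, 21, became 58 without the low-count filter, 55 with DESeq2, 10 after thinning to the smallest library, and 4 (without control replicate 2) to 43 (without control replicate 4) when 1 library was left out. With the replicate block 6 genes passed, 5 of them among the 21 and Ctss one of them. Deviations of same-numbered libraries correlated at 0.25, -0.062, -0.006 and -0.241. The sources used here do not say whether the numbers mark pairs, and these 4 values cannot settle it. Ctsd, near 0, turned negative without control replicate 4 (-0.132) and without knockout replicate 4 (-0.083). Ctsf turned positive without control replicate 2 (0.091), control replicate 3 (0.039) and knockout replicate 3 (0.051). Over all fits with 1 library left out, Ctsd lay between -0.132 and 0.172 and Ctsf between -0.203 and 0.091. The difference between the class medians, 0.079, lay between 0.006 and 0.167 in the fits with 1 library left out. The cause of these changes was not tested. Depth sets the floor for genes with few counts, such as Cyp19a1; how far it sets the width of the cathepsin intervals was not tested.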
